A study of Capra hircus with 12 samples.

Results

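The ADAMTS genes encode secreted zinc metalloproteinases with thrombospondin repeats, and 9 of them (ADAMTS1, ADAMTS2, ADAMTS4, ADAMTS5, ADAMTS6, ADAMTS7, ADAMTS9, ADAMTS12 and ADAMTS15) were followed by symbol among 28910 gene rows in RNA-seq of goat temporomandibular joint (TMJ) cells. Another 10 ADAMTS genes were in the same tables. The cells came from the condylar fibrocartilage of female goats less than a year old from abattoirs, and were released with collagenase, frozen and passaged as monolayers. They are superficial layer cells (SLC) and cells of the middle cartilage layer (MLC). All 12 libraries were made from cells treated with IL-1β for an hour, 3 libraries of each layer with IL-1β alone and 3 of each layer with an adenovirus carrying LOXL2 overnight before IL-1β. Vehicle-treated cells were not analysed here, so no value below is an effect of IL-1β. Whether the IL-1β cells received an empty virus is not given in the sources used here, and LOXL2 and the virus cannot be told apart. The number of animals behind each culture is not given either, so p-values measure the spread between these libraries, which may be technical.

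ADAMTS4 and ADAMTS5 are the main aggrecanases of cartilage, which cut the core protein of aggrecan, the proteoglycan that gives cartilage its resistance to compression. ADAMTS1, ADAMTS9 and ADAMTS15 can also cut aggrecan or versican, ADAMTS2 removes the N-propeptide of fibrillar procollagens, ADAMTS7 and ADAMTS12 cut cartilage oligomeric matrix protein (COMP), and ADAMTS6 acts on fibrillin microfibrils. IL-1β is an inflammatory cytokine used to model osteoarthritis, and LOXL2 is a lysyl oxidase that crosslinks collagen and elastin. The study asked how LOXL2 changes the response of each layer to IL-1β.

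Library totals ranged from 14158607 to 28931652 counts. The LOXL2 gene of the goat did not have more counts where the label names LOXL2. In SLC its normalized counts (raw counts divided by DESeq2's size factor of the library) were 11584, 11651 and 11894 with IL-1β and 8541, 10127 and 10389 with IL-1β + LOXL2, and in MLC they were 14290, 16294 and 15189 against 15249, 14739 and 13808. The directions below therefore rest on the labels. Within the SLC IL-1β + LOXL2 group, the pairs holding replicate 1 differed most (chi-square per degree of freedom 159 and 58.2, against 29.2 for the other pair and at most 9.38 within the IL-1β groups). Within the MLC IL-1β + LOXL2 group the pairs holding replicate 1 also differed most (15.2 and 33.9, against 5.81). COL2A1, a defining cartilage collagen, was at 0 counts in 5 of 6 SLC libraries and had 159 to 350 counts in each MLC library. Markers of endothelial cells summed to 2.94 to 5.20 CPM (counts scaled to the library total) over 8 genes, with EMCN at 0 in every group. Those of myeloid cells summed to 56.0 to 140 CPM over 8 genes, with C1QA at 0 in every group. Of the smooth muscle cell or pericyte markers none was at 0, and they summed to 1175 to 1411 CPM in MLC with IL-1β against 1491 to 1858 with IL-1β + LOXL2, and to 1619 to 2092 against 1877 to 2238 in SLC. These sums do not stand for each gene either. Of 5 such markers with enough counts to be tested in MLC, 2 were higher and 3 lower with IL-1β + LOXL2. Of 6 tested in SLC, 2 were higher and 4 lower. Adipocyte markers (5 of 6 in the tables) summed to 14.2 to 15.96 against 17.0 to 21.2 CPM in SLC and 5.56 to 8.48 against 8.88 to 9.47 in MLC, and skeletal muscle markers (6 of 8, MYOG at 0 in every group) to 6.99 to 9.08 against 9.97 to 22.01 in SLC and 2.38 to 3.25 against 3.35 to 4.25 in MLC. The adipocyte sums do not stand for each gene. In SLC 4 adipocyte markers had enough counts to be tested, and 3 were lower and 1 higher with IL-1β + LOXL2. In MLC 3 were tested, 1 lower and 2 higher. The part of these cell types in the LOXL2 comparisons was not tested.

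The members differ in gene size and place. In the ARS1.2 assembly ADAMTS5 (gene ID 102172097) spans 53566 bases at chr1:7818403-7871968 and ADAMTS1 (102172386) spans 9470 bases at chr1:7974430-7983899. They are neighbours with 102461 bases and no other annotated gene between them, and CYYR1 follows ADAMTS1 after 291055 bases. ADAMTS4 is at chr3:111811152-111819330, ADAMTS2 at chr7:106529575-106789969, ADAMTS7 at chr21:29914770-29971920, ADAMTS9 at chr22:36749217-36911613 and ADAMTS15 at chr29:35789571-35813977. ADAMTS6 (chr20:14044904-14329750) and ADAMTS12 (chr20:39833666-40222923) lie apart on chromosome 20. All 9 are annotated as protein-coding. Spans run from 8179 bases for ADAMTS4 to 389258 bases for ADAMTS12. Counts cover whole genes and exon lengths were not used here, so levels of different genes are not ranked.

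Of the 9 members, 7 had enough counts to be tested in every comparison. ADAMTS12 and ADAMTS15 did not pass the filter on low counts. Together the 9 members took 715 to 800.2 CPM in the SLC IL-1β libraries, 487 to 544 in the SLC IL-1β + LOXL2 libraries, 636 to 729 in the MLC IL-1β libraries and 476 to 586 in the MLC IL-1β + LOXL2 libraries. The summed level was lower in every IL-1β + LOXL2 library than in any IL-1β library of its layer, and ADAMTS2 and ADAMTS5 gave most of the counts in it, uncorrected for gene length.

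**Figure D1:**
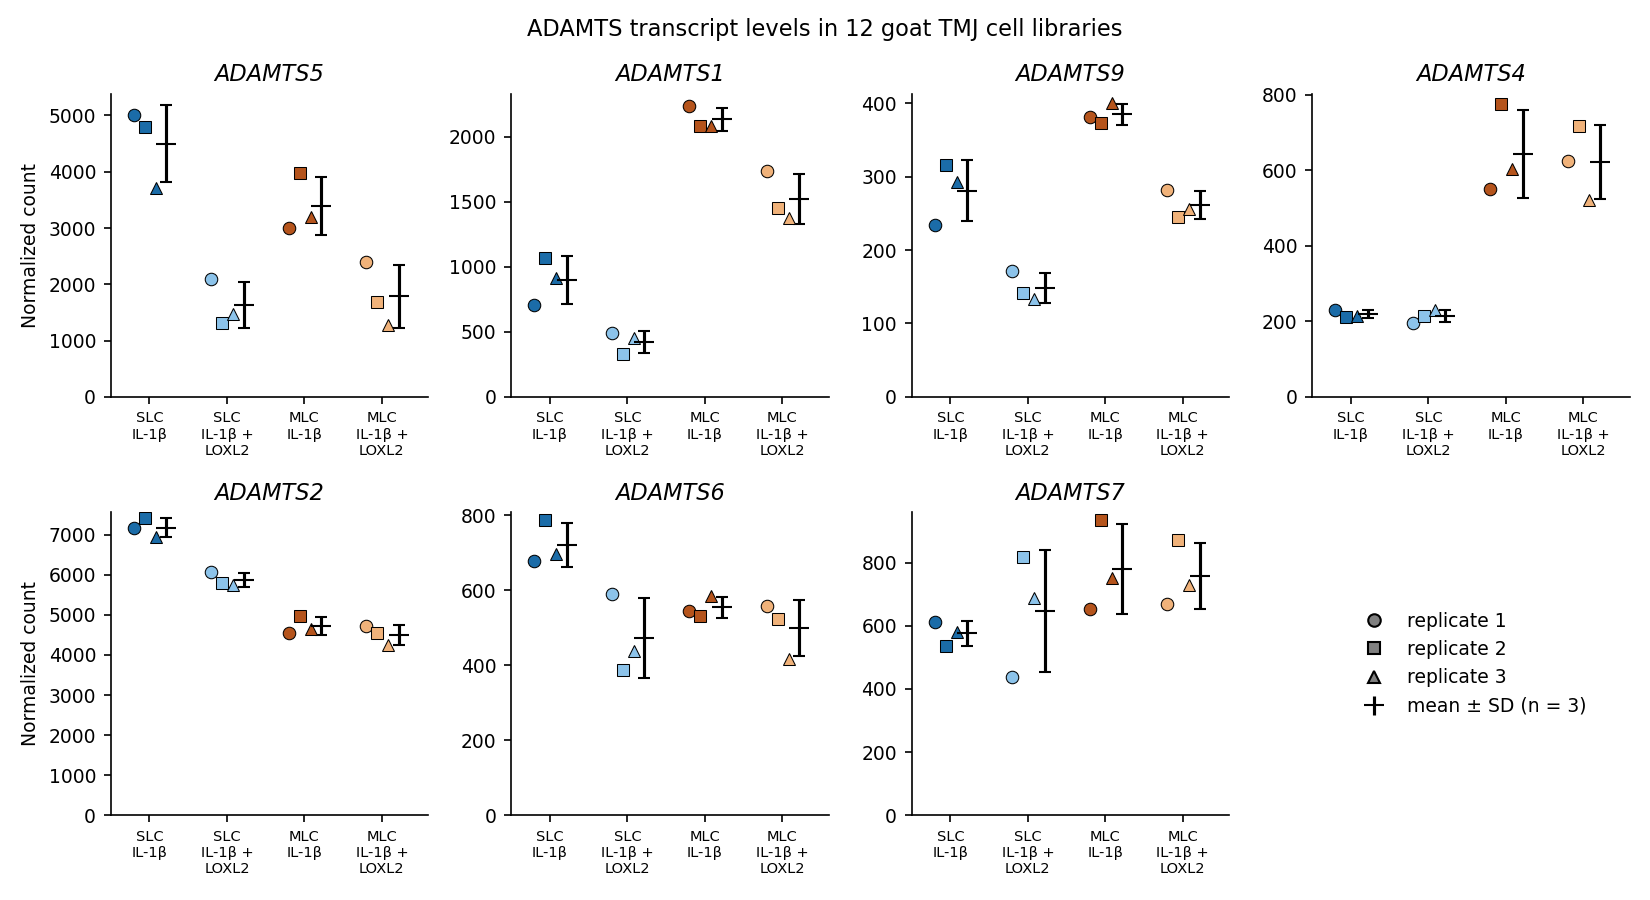
Normalized counts of the 7 tested members (vertical axes, starting at 0) in the 4 groups, with 1 point per library, the point shape giving the replicate number and the bar giving the mean ± SD of 3 libraries. ADAMTS5 sat between 3713 and 5002 in SLC with IL-1β and between 1320 and 2103 with IL-1β + LOXL2, whereas ADAMTS4 differed between layers and overlapped between treatments within each layer.

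Among the aggrecanases, ADAMTS5 was lower with LOXL2 in both layers, and the difference passed the test in MLC. In SLC its normalized counts were 5002, 4789 and 3713 with IL-1β (4501 ± 691, SD, n = 3) and 2103, 1320 and 1471 with IL-1β + LOXL2 (1631 ± 415). In MLC they were 2999, 3982 and 3193 (3391 ± 521) and 2389, 1695 and 1275 (1786 ± 563). Every IL-1β + LOXL2 library was below every IL-1β library of its layer, and the first replicate was the highest of its IL-1β + LOXL2 group in both layers. The log2 fold change was -1.46 ± 0.21 (SE) in SLC (95% interval -1.94 to -0.98), with an adjusted p of 0.0706 (edgeR's quasi-likelihood F test, Benjamini-Hochberg over all genes tested). That was the smallest adjusted p of any gene in SLC. The adjustment gave the same value to ADAMTS1, ADAMTS6, ADAMTS9 and other genes below, so it does not rank them. In MLC ADAMTS5 fell by 0.93 on the log2 scale (SE 0.18, 95% interval -1.32 to -0.53, edgeR adjusted p = 0.0190). Its fold change was below that of all but 1.11% of the genes tested in SLC and all but 1.49% of those in MLC.

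ADAMTS4, the other main aggrecanase, did not differ beyond its spread with LOXL2. Its normalized counts in SLC were 231, 211 and 215 with IL-1β and 197, 214 and 229.6 with IL-1β + LOXL2. In MLC they were 551, 774 and 604 against 625, 716 and 521. The treatment groups overlapped in both layers, and the MLC libraries were all higher than the SLC libraries. The log2 fold change with LOXL2 was -0.033 (95% interval -0.32 to 0.25) in SLC and -0.056 (95% interval -0.37 to 0.26) in MLC, with edgeR adjusted p of 0.845 and 0.801.

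ADAMTS1, which can cut both aggrecan and versican and whose gene is the neighbour of ADAMTS5, was also lower with LOXL2 in both layers. Its normalized counts in SLC were 709, 1071 and 914 with IL-1β (898 ± 181) and 490, 327 and 455 with IL-1β + LOXL2 (424 ± 85.9). In MLC they were 2237, 2083 and 2079 (2133 ± 89.9) against 1737, 1448 and 1377 (1521 ± 191). No IL-1β + LOXL2 library reached an IL-1β library of the same layer, and even the lowest MLC library was above the highest SLC library. The log2 fold change was -1.08 ± 0.21 in SLC (95% interval -1.56 to -0.60, edgeR adjusted p = 0.0706). In MLC ADAMTS1 fell by 0.49 (SE 0.10, 95% interval -0.71 to -0.27, edgeR adjusted p = 0.0198).

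ADAMTS9, a protease of versican and aggrecan, was the third aggrecan-cutting member that was lower with LOXL2 in both layers. Its values in SLC were 235, 315 and 292 with IL-1β and 171, 141 and 133 with IL-1β + LOXL2, and in MLC 382, 373 and 399.6 against 282, 245 and 256. The groups of each layer did not overlap. The log2 fold change was -0.92 ± 0.17 in SLC (95% interval -1.31 to -0.52, edgeR adjusted p = 0.0706), and in MLC ADAMTS9 fell by 0.56 (SE 0.11, 95% interval -0.81 to -0.31, edgeR adjusted p = 0.0194).

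ADAMTS2, the procollagen N-proteinase, was lower with LOXL2 in SLC by a small amount. Its normalized counts there were 7177, 7404 and 6939 with IL-1β and 6079, 5785 and 5742 with IL-1β + LOXL2, without overlap (log2 fold change -0.29 ± 0.093, edgeR adjusted p = 0.0749). In MLC the values were 4537, 4970.4 and 4638 against 4715, 4538 and 4238, and the groups overlapped (log2 fold change -0.071, edgeR adjusted p = 0.561). ADAMTS6, the microfibril protease, had 679, 788 and 698 normalized counts in SLC with IL-1β and 591, 387 and 438 with IL-1β + LOXL2. These groups did not overlap (log2 fold change -0.61 ± 0.17, edgeR adjusted p = 0.0706). In MLC ADAMTS6 had 546, 533 and 586 against 559, 524 and 416, with overlap (log2 fold change -0.16, edgeR adjusted p = 0.367).

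ADAMTS7, a COMP-cutting protease, had 613, 535 and 580.3 normalized counts in SLC with IL-1β and 437, 817 and 687 with IL-1β + LOXL2. The IL-1β + LOXL2 replicates lay on both sides of the IL-1β group, replicate 1 below it and the others above it (log2 fold change 0.17, 95% interval -0.33 to 0.68, edgeR adjusted p = 0.549). In MLC the values were 652, 935 and 752 against 669, 871 and 729 and overlapped (log2 fold change -0.049, edgeR adjusted p = 0.821). ADAMTS12, a protease with the same substrate, had 7, 17 and 7 raw counts in SLC with IL-1β, 5, 4 and 4 with IL-1β + LOXL2, 5, 6 and 11 in MLC with IL-1β, and 9, 3 and 3 with IL-1β + LOXL2. For ADAMTS12 and ADAMTS15, CPM were taken on the group's total without the TMM factor. Summed over a group, ADAMTS12 was at 0.512 CPM (95% Poisson interval 0.348 to 0.726) in SLC with IL-1β and 0.180 CPM (0.0958 to 0.308) with IL-1β + LOXL2, and in MLC at 0.495 CPM (0.310 to 0.749) and 0.286 CPM (0.160 to 0.471). These intervals cover counting error only. ADAMTS15, a further aggrecan-cutting member, had 2, 1 and 1 counts in the SLC IL-1β libraries and 0, 2 and 0 in the SLC IL-1β + LOXL2 libraries. It was at 0 counts in all 6 MLC libraries, which allows up to 0.0675 CPM with IL-1β and 0.0571 CPM with IL-1β + LOXL2 (3 counts of the group's total), and no difference was detectable at this depth.

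In the comparison of IL-1β + LOXL2 with IL-1β in SLC, edgeR called none of 14103 genes (0%) at an adjusted p under 0.05, although 6108 (43.3%) were under 0.05 before adjustment and DESeq2's Wald test called 4107 of 20122 (20.4%). Lower at an unadjusted p under 0.05 were 5 of 7 members (ADAMTS1, ADAMTS2, ADAMTS5, ADAMTS6 and ADAMTS9) against 20.2% of all genes tested, and the same 5 had groups that did not overlap, against 25.2% of all genes. The members' median log2 fold change was -0.61, and that of all genes was 0.013. Without SLC IL-1β + LOXL2 replicate 1, edgeR called 8849 of 14334 genes (61.7%) and 6 members. Those 6 were ADAMTS5 (-1.69, adjusted p = 2.88e-05), ADAMTS1 (-1.21), ADAMTS9 (-1.04), ADAMTS6 (-0.81) and ADAMTS2 (-0.32), all lower, and ADAMTS7 (0.38, adjusted p = 0.00917), higher. The chi-square values above mark the same library as the one farthest from its group. The fit on all 12 libraries called 5961 genes (41%), and it and DESeq2 both called ADAMTS1, ADAMTS2, ADAMTS5, ADAMTS6 and ADAMTS9 lower.

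In MLC edgeR called 2958 of 13664 genes (21.6%), 11.8% of all genes tested being lower. Lower were 3 of 7 members (ADAMTS1, ADAMTS5 and ADAMTS9), the same 3 whose groups did not overlap, against 19.9% of all genes without overlap and lower. The median over the 7 was -0.16, against 0.0079 over all genes. Single libraries decided these calls. Without MLC IL-1β replicate 1, MLC IL-1β replicate 3 or MLC IL-1β + LOXL2 replicate 2, no gene and no member was called (adjusted p for ADAMTS5 0.0780, 0.0889 and 0.107), and without MLC IL-1β + LOXL2 replicate 1, 6653 genes (48.1%) and the same 3 members were called. The log2 fold changes moved less, from -1.19 to -0.73 for ADAMTS5, from -0.59 to -0.42 for ADAMTS1 and from -0.61 to -0.52 for ADAMTS9 over the 6 fits that left out a library. In a fit on all 12 libraries no MLC gene was called (0%), with an adjusted p of 0.174 for each of the 3.

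Across all genes the LOXL2 fold changes went with the genomic span of the gene, long genes being lower (Spearman's rho across genes -0.49 in both layers, genes not being independent replicates). Among the members ADAMTS4 (8179 bases) and ADAMTS1 (9470) are short, and ADAMTS2, ADAMTS6 and ADAMTS9 are long. ADAMTS5 (53566) and ADAMTS7 (57151) lie between them. With each library's trend on span removed, ADAMTS1 was at -1.27 in SLC and -0.63 in MLC, farther from 0 than before, and ADAMTS5 at -1.24 and -0.79. Both were called in MLC (edgeR adjusted p = 0.0186 for each). ADAMTS9 came to -0.53 in SLC and -0.30 in MLC and its MLC call was lost (adjusted p = 0.0760), ADAMTS6 came to -0.21 and 0.12, and ADAMTS2 turned positive in both layers (0.14 and 0.21). Over the alternatives that kept all libraries, this trend removal among them, ADAMTS4 reached -0.27 in SLC and -0.21 in MLC at its lowest.

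**Figure D2:**
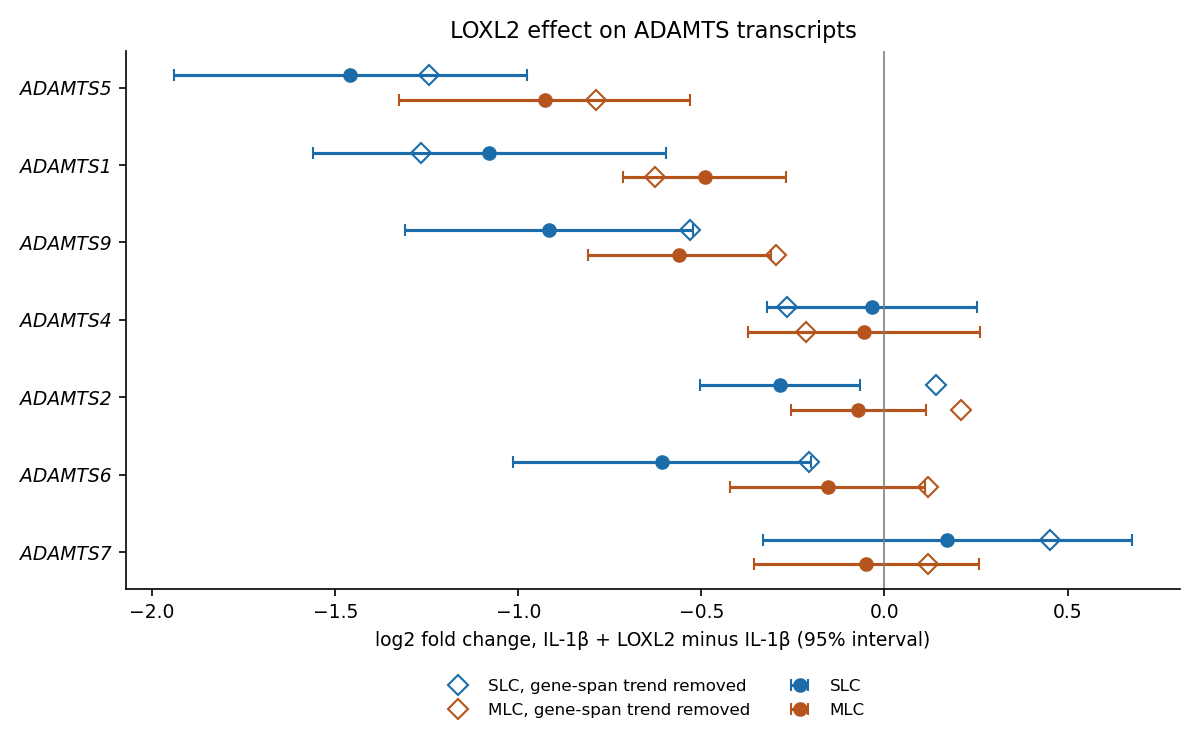
Log2 fold change of each member between IL-1β + LOXL2 and IL-1β (horizontal axis), in SLC and MLC, as filled points with 95% intervals from edgeR (6 libraries per layer), and as open diamonds after removal of the trend with gene span. ADAMTS5 and ADAMTS1 stayed well below 0 in both layers with and without the trend, and ADAMTS9 moved toward 0. ADAMTS2 crossed 0 in both layers, and ADAMTS6 and ADAMTS7 crossed 0 in MLC.

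The LOXL2 effect was compared between layers with an interaction term in all 12 libraries. The log2 difference (effect in MLC minus effect in SLC) was 0.58 ± 0.23 for ADAMTS1 (95% interval 0.070 to 1.09, edgeR adjusted p = 0.959), 0.52 for ADAMTS5 (-0.17 to 1.21), 0.44 for ADAMTS6 (-0.026 to 0.91), 0.34 for ADAMTS9 (-0.067 to 0.75) and 0.20 for ADAMTS2 (-0.035 to 0.44). It was -0.035 for ADAMTS4 (-0.49 to 0.42) and -0.24 for ADAMTS7 (-0.86 to 0.39). The 5 members that were lower in SLC all had a smaller decrease in MLC, but none was called, and neither edgeR (0% of 14532 genes, with 327 or 2.25% at an unadjusted p under 0.05) nor DESeq2 called any gene. A difference between layers in the LOXL2 effect on these proteases was therefore not shown, and the intervals leave room for more than 1 log2 unit for ADAMTS1 and ADAMTS5.

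Between the layers under IL-1β alone all 7 tested members differed, and in both directions, where 46.9% of 13966 genes were called. Higher in MLC were ADAMTS4 (log2 difference 1.58 ± 0.12, edgeR adjusted p = 7.70e-08), ADAMTS1 (1.26 ± 0.11, adjusted p = 3.02e-07), ADAMTS9 (0.47 ± 0.11) and ADAMTS7 (0.46 ± 0.11), 4 of 7 against 24.2% of all genes. Lower in MLC were ADAMTS2 (-0.59 ± 0.060, adjusted p = 1.91e-06), ADAMTS5 (-0.39 ± 0.11, adjusted p = 0.0100) and ADAMTS6 (-0.36 ± 0.079), 3 of 7 against 22.7%. The groups did not overlap for 6 of the 7, against 56.1% of all genes. ADAMTS5 was the exception, since MLC replicate 2 (3982) was above SLC replicate 3 (3713), and its call was lost without SLC IL-1β replicate 1 (adjusted p = 0.0573) and with DESeq2 (0.0730, where 28.6% of genes were called). When all 12 libraries were fitted together 4 members and 25.6% of genes were called, the calls of ADAMTS5, ADAMTS6 and ADAMTS7 being lost (adjusted p = 0.233, 0.106 and 0.130).

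With IL-1β + LOXL2 the layer difference was called for 3 of 7 members, all higher in MLC, where 16.1% of 14086 genes were called and 9.26% were higher. Fewer calls than under IL-1β alone do not show that a layer difference was lost. That change is the contrast of the interaction above, which was called for no member. ADAMTS1 differed by 1.85 ± 0.19 (edgeR adjusted p = 0.000853), ADAMTS4 by 1.55 ± 0.16 (0.000824) and ADAMTS9 by 0.82 ± 0.16 (0.0124). The ADAMTS9 call was lost without SLC IL-1β + LOXL2 replicate 3 (0.0682), MLC IL-1β + LOXL2 replicate 1 (0.0536) or replicate 2 (0.0506). The layers overlapped for ADAMTS5, as they did under IL-1β alone, with 2103, 1320 and 1471 normalized counts in SLC and 2389, 1695 and 1275 in MLC (log2 difference 0.14, 95% interval -0.48 to 0.75). ADAMTS6 (0.090) and ADAMTS7 (0.24) were not called either. ADAMTS2 was lower in every MLC library (-0.37 ± 0.11, edgeR adjusted p = 0.0514). In this comparison libraries with the same replicate number deviated together, and with the replicate number as a block ADAMTS2 was called (adjusted p = 0.0270) and the genes called rose to 3883 (27.6%). In bulk libraries a smaller share of cells that express a gene and less RNA of it per cell cannot be told apart. Chondrocyte markers (11 of 13 in the tables, MATN1 at 0 in every group) summed to 1312 to 1426 CPM in SLC with IL-1β and 752 to 1315 with IL-1β + LOXL2. In MLC they summed to 1757 to 1909 and 1492 to 1870. These sums were higher in MLC under each treatment, and their medians were lower with LOXL2 in SLC (966 against 1384) and MLC (1602 against 1892). The ranges of the treatments overlapped in both layers. By gene, 5 of 6 tested chondrocyte markers were lower with LOXL2 in SLC and 6 of 8 in MLC, and none of these was called. In MLC 1 of 8 was called higher, against 9.81% of all genes. The sums over markers of superficial fibrocartilage cells (8 genes) overlapped between the layers. With IL-1β these markers summed to 70065.5 to 72146 CPM in SLC and 68323 to 70291 in MLC. With IL-1β + LOXL2 the sums were 61775 to 71524 and 68132 to 72844. Single markers did differ. Under IL-1β 2 of 7 tested were called higher in MLC and 3 lower, against 24.2% and 22.7% of all genes. With IL-1β + LOXL2 2 of 8 were called higher and 2 lower, against 9.26% and 6.82%. The part of either list in these differences was not tested.

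**Figure D3:**
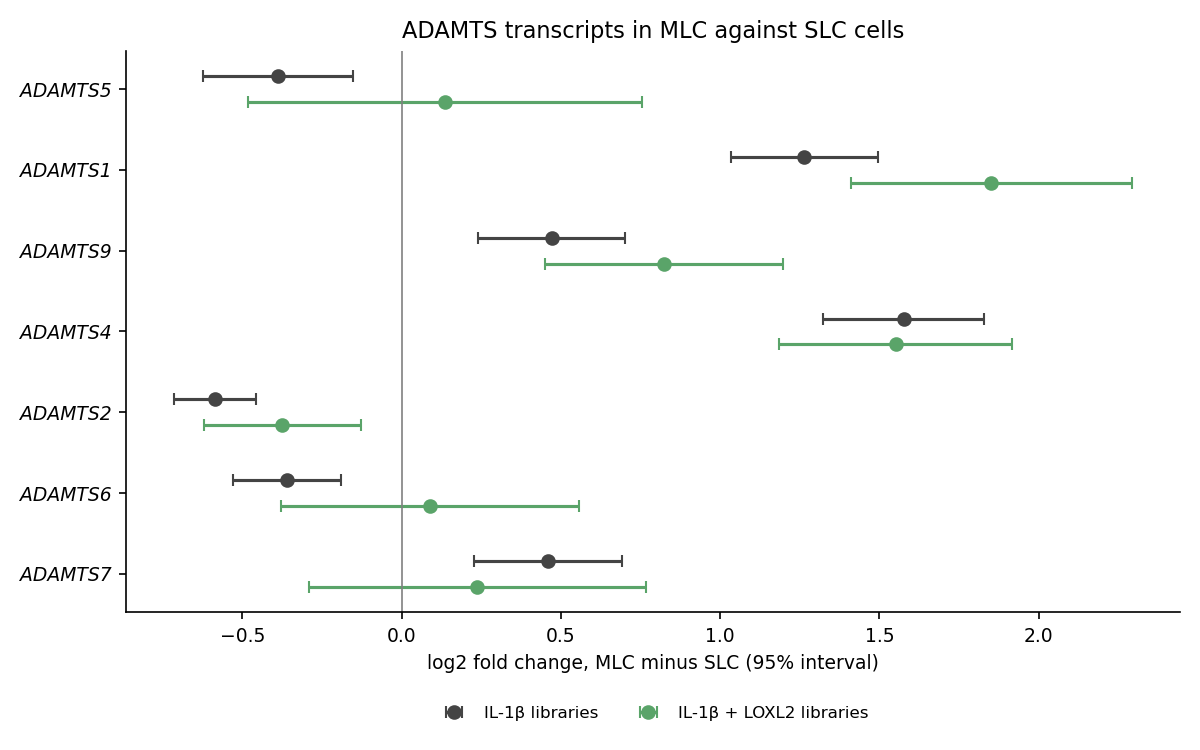
Log2 difference between MLC and SLC (horizontal axis) for each member, in the IL-1β libraries and in the IL-1β + LOXL2 libraries, with 95% intervals from edgeR (3 libraries per group). ADAMTS1 and ADAMTS4 lie above 1 under both treatments, whereas ADAMTS5 lies below 0 with IL-1β alone and its interval spans 0 with IL-1β + LOXL2.

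Ratios of counts within a library need no scaling between libraries. They were computed for 4 pairs of aggrecan-cutting members chosen after their values were seen, so they restate those values in another form and are given as a description, with no test. The ratio of ADAMTS5 to ADAMTS1 was 7.05, 4.47 and 4.06 in SLC with IL-1β, 4.29, 4.04 and 3.23 in SLC with IL-1β + LOXL2, 1.34, 1.91 and 1.54 in MLC with IL-1β, and 1.38, 1.17 and 0.925 in MLC with IL-1β + LOXL2. Each MLC value was below each SLC value of the same treatment, 3.19-fold lower with IL-1β and 3.35-fold with IL-1β + LOXL2, while the treatments overlapped within each layer. The ratio of ADAMTS5 to ADAMTS4 was 21.7, 22.6 and 17.3 in SLC with IL-1β, 10.7, 6.16 and 6.41 in SLC with IL-1β + LOXL2, 5.44, 5.14 and 5.29 in MLC with IL-1β, and 3.82, 2.37 and 2.44 in MLC with IL-1β + LOXL2. It was 2.72-fold lower with LOXL2 in SLC and 1.89-fold lower in MLC, without overlap. The trend with gene span was not removed from any of these ratios, and ADAMTS5 spans 53566 bases against 8179 for ADAMTS4. The part of that trend in the ratios was not tested. The ratio of ADAMTS5 to ADAMTS9 was lower without overlap in MLC under both treatments and with LOXL2 in SLC (1.48-fold), and overlapped between treatments in MLC. The ratio of ADAMTS1 to ADAMTS4 was lower without overlap with LOXL2 in SLC (2.06-fold) and overlapped in the other 3 comparisons.

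**Figure D4:**
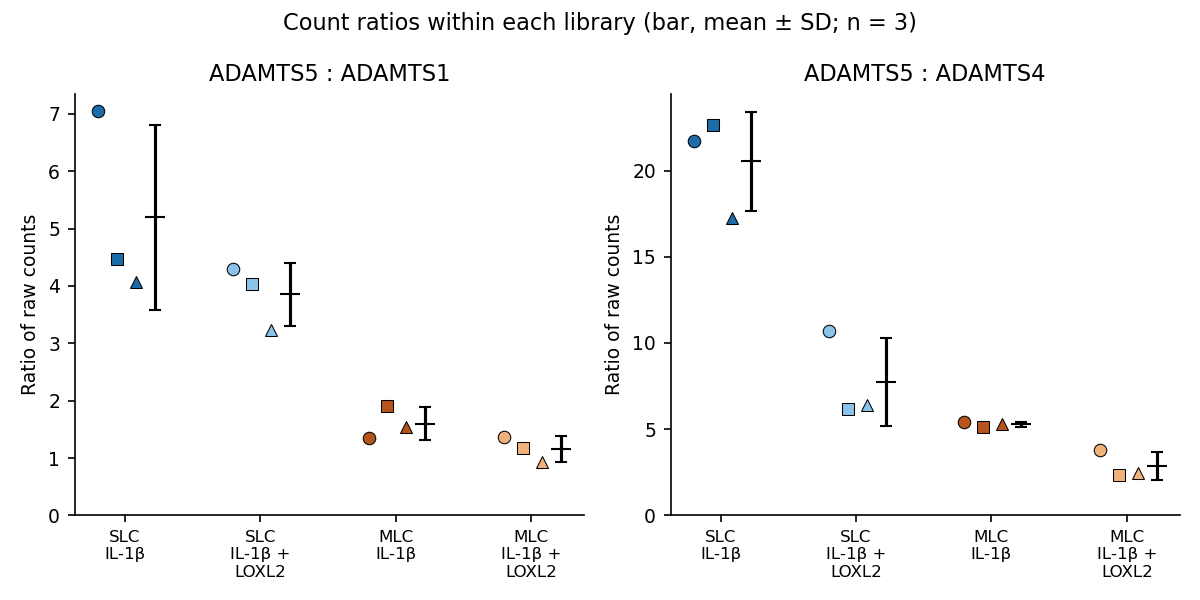
Ratios of raw counts of ADAMTS5 to ADAMTS1 (left) and of ADAMTS5 to ADAMTS4 (right) in each library (vertical axes, starting at 0), with circles, squares and triangles for replicates 1, 2 and 3 and bars for the mean ± SD of 3 libraries. The left ratio separates SLC (3.23 to 7.05) from MLC (0.925 to 1.91), and the right ratio is also lower with LOXL2 in each layer.

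CYYR1, the next gene after ADAMTS1, was low. It had 2, 4 and 2 raw counts in SLC with IL-1β, 1, 2 and 1 with IL-1β + LOXL2, 33, 16 and 24 in MLC with IL-1β and 33, 27 and 20 with IL-1β + LOXL2. All MLC libraries were above all SLC libraries of either treatment, and since the gene passed the filter on low counts through the MLC libraries, the layer difference is given as a description. With LOXL2 it did not differ in MLC beyond its spread (-0.085, adjusted p = 0.874), and it was too low to test in SLC.

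The genes whose profile over the 12 libraries was nearest to each member were found by the root mean square difference of gene-centred log2 CPM among 11554 genes. For ADAMTS5 the nearest was EPAS1 (0.131 log2 units), which encodes the hypoxia-inducible factor HIF-2α, followed by NFAT5 (0.195) and HIVEP2 (0.204), where the median gene was 0.745 away. EPAS1 normalized counts were 49972, 51225 and 44364 in SLC with IL-1β and 23705, 12384 and 18949 with IL-1β + LOXL2. In MLC they were 30126, 39373 and 33010 against 27116, 20048 and 14804. EPAS1 was chosen for its likeness to ADAMTS5 over these libraries, so the values they share are a description and carry no test here. For ADAMTS1 the nearest were ESCO2 (0.168), KIF14 (0.171) and COL12A1 (0.174), and for ADAMTS4 CHST2 (0.128), STAC (0.138) and CCDC3 (0.142). Among the nearest to ADAMTS9 were CHST3 (0.128) and ENTPD1 (0.144). For ADAMTS2 they were EXOC4 (0.0633), KLHL42 and STK38, for ADAMTS6 INTS6 (0.0527), FBXO28 and RDX, and for ADAMTS7 ZC3H12A (0.0772), SDC4 and MAFF. Among the members the closest pair was ADAMTS2 and ADAMTS6 (0.258), and the farthest was ADAMTS1 and ADAMTS2 (1.09). ADAMTS1 and ADAMTS5 were 0.915 apart.

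Other ADAMTS and ADAMTS-like genes were followed as a list, of which 17 of 18 were in the tables and 12 were tested. For every list below, no call could be counted in SLC, where edgeR called no gene, and the MLC counts stand beside 11.8% of all genes called lower and 9.81% called higher. The lists were chosen with earlier results of these data known, so these counts are a description. In SLC 11 of 12 had negative fold changes (median -0.27, against 0.013 over all genes). In MLC 1 of 12 fell, which is no larger a share than that of all genes. It was THSD4, which encodes the microfibril protein ADAMTSL6 (-0.42 ± 0.12, edgeR adjusted p = 0.0342, and -0.75 in SLC with adjusted p = 0.127). ADAMTSL5 was at -0.60 in SLC and -0.28 in MLC, ADAMTS3, a procollagen N-proteinase, at -0.65 and -0.41, and ADAMTS17 at -0.51 and 0.071, none of them called.

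Of the proteoglycan substrates 8 of 10 were tested, and 1 of 8 was called for LOXL2 in MLC, versican, a share near the 11.8% of all genes that were lower. VCAN, the core protein of versican, had normalized counts of 33691, 46040 and 37100 in SLC with IL-1β against 17265, 10294 and 12593 with IL-1β + LOXL2. In MLC they were 49460, 49270 and 49796 against 34756, 24736 and 20307. Neither layer's groups overlapped, with log2 fold changes of -1.54 ± 0.22 in SLC (edgeR adjusted p = 0.0706) and -0.90 ± 0.15 in MLC (adjusted p = 0.0190). ACAN, the core protein of aggrecan, had 944, 891 and 848 against 1014, 545 and 653 in SLC and 8099, 6521 and 7733 against 7305, 6078 and 5727 in MLC. Its treatment groups overlapped (-0.27 in SLC, adjusted p = 0.358, and -0.23 in MLC, adjusted p = 0.145), and it was higher in MLC by 3.08 ± 0.084 with IL-1β (adjusted p = 2.79e-12). BGN, the small proteoglycan biglycan, was at 0.36 in SLC and 0.24 in MLC, and HAPLN1, a link protein, at -0.026 and -0.24, none of them called.

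Of the procollagen genes cut by ADAMTS2, 5 were tested in SLC and 6 in MLC. In MLC 1 of 6 fell, against 11.8% of all genes, COL5A1 (-0.37 ± 0.11, edgeR adjusted p = 0.0323, and -0.70 in SLC). COL3A1 (-0.32 and -0.13), COL5A2 (-0.38 and -0.18) and COL1A1 (-0.021 and 0.12) were not called in SLC or MLC. Among partners in propeptide removal, of which 5 of 7 were tested, PCOLCE, an enhancer of C-propeptide cleavage, rose in MLC (0.38 ± 0.098, adjusted p = 0.0244, and 0.57 in SLC) and TLL1, a C-proteinase, fell (-0.66 ± 0.17, adjusted p = 0.0257, and -0.96 in SLC), with BMP1 (0.037 and 0.076) and TLL2 (-0.0023 and -0.12) not called.

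Of 9 tested genes of other matrix substrates and partners 6 fell and 1 rose in MLC, against 11.8% and 9.81% of all genes, and the MLC median was -0.44. In SLC 7 of 9 were negative (median -0.75, against 0.013 over all genes). The microfibril genes FBN2 (-1.14 in SLC, -0.90 in MLC, edgeR adjusted p = 0.0190 in MLC) and FBN1 (-1.10 and -0.70, adjusted p = 0.0199) and the basement membrane gene NID2 (-0.62 and -0.51, adjusted p = 0.0205) were among those that fell. LTBP1, which binds latent TGF-β, was at -0.61 and -0.42 and was not called. COMP, chosen after its values were seen as the single gene that rose, was at 0.37 in MLC (adjusted p = 0.0283) and 0.36 in SLC (adjusted p = 0.144). The trend with gene span given above was not removed from the values of these lists.

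Of the inhibitors and clearance receptors 5 of 7 were tested, and in MLC 1 rose and 1 fell, against 9.81% and 11.8% of all genes. TIMP1, a general metalloproteinase inhibitor, rose in MLC (0.61 ± 0.13, edgeR adjusted p = 0.0199, and 0.73 in SLC, adjusted p = 0.0728). LRP1, an endocytic receptor that takes up aggrecanases, fell in MLC (-0.61 ± 0.13, adjusted p = 0.0194, and -0.94 in SLC, adjusted p = 0.0706). TIMP3, the inhibitor most active on the aggrecanases, was named after its values were seen. With LOXL2 it was at -0.17 in SLC (adjusted p = 0.570) and at -0.051 in MLC (adjusted p = 0.742), and it was lower in MLC than in SLC under IL-1β (-0.31, adjusted p = 0.00626). TIMP2 was at 0.23 in each layer and RECK at -0.61 and -0.34, neither of them called.

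All 7 genes of activation and processing were tested and none was called for LOXL2 in either layer. PCSK5, a proprotein convertase, was at -0.59 in SLC and -0.36 in MLC, and PCSK7 at 0.33 and 0.19. The glycosylation enzymes of thrombospondin repeats were at 0.28 and 0.22 (POFUT2) and at 0.20 and 0.11 (B3GLCT). Of 12 transcription factors known to act on aggrecanase genes, all tested, 3 fell in MLC, against 11.8% of all genes. They were RUNX1 (-0.84 ± 0.14 in MLC, edgeR adjusted p = 0.0190, and -1.25 in SLC), EPAS1 (-0.73 ± 0.17, adjusted p = 0.0219, and -1.40 in SLC) and HIF1A (-0.35 ± 0.11, adjusted p = 0.0402, and -0.53 in SLC). EPAS1 is the gene given above as nearest to ADAMTS5, so its decrease is not a separate observation. SOX11 was at -0.40 in MLC (adjusted p = 0.0510) and -0.41 in SLC.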

How the data were processed

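Goat TMJ cells were profiled by poly-T selected, paired-end RNA-seq. Raw read counts per gene were deposited by the authors, a table per layer, made with featureCounts on ARS1.2, HISAT2 also being named in the submitters' processing notes. Strand and multimapping settings are not given in the sources used here, so reads of overlapping and antisense genes cannot be told apart. Tables were joined by gene name.

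The main test was edgeR 4.0.16 under R 4.3.3 (filterByExpr with minimum count 10 and total 15, TMM, glmQLFit and glmQLFTest, Benjamini-Hochberg over all genes tested, threshold 0.05) in the 6 libraries of the groups compared, and the interaction in all 12. Standard errors were taken as |log2 fold change| over the root of the F statistic. Normalized counts used DESeq2 1.42.0. The replicate number was used as a block only as an alternative. In the comparison of layers with IL-1β + LOXL2, same-numbered libraries deviated together (r 0.72, 0.30 and 0.27), a hint from the data and not from the labels, and so did a pair numbered 2 and 3 (r 0.59). In the other comparisons at least 1 same-numbered pair had r below 0.1.

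The members and gene lists were chosen with earlier results of these data known. Genes named are the 9 members, up to 4 genes of each list with the smallest p for LOXL2 in either layer, the neighbours of ADAMTS1 and ADAMTS5, and the 3 nearest profiles of each member, and any other gene is said to be chosen after its values were seen. A gene that met this rule is not reported here. Alternatives were DESeq2's size factors, no filter, DESeq2's Wald test, the block, all 12 libraries, each library left out, and removal of a lowess fit per library (smoother span 0.3) of log2 CPM against gene span, alone and with the block. All replicate pairs differed by more than counting noise, the lowest chi-square over its degrees of freedom being 2.23.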

Additional observations from a re-analysis of the deposited data

How the results depend on the processing

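Over the 5 comparisons and 7 tested members, 424 of 490 alternative values kept their direction and side of the threshold, 22 lost a call, 22 gained one and 22 changed sign. For LOXL2 in SLC, 0 members were called, against 5 with DESeq2's Wald test (4107 genes called), 5 in the fit on all 12 libraries (5961 genes) and 0 to 6 with a library left out (0 to 8849 genes). In MLC 3 members and 2958 genes were called, against 0 members and 0 genes in the fit on all 12 libraries, 1814 genes with the gene-span trend removed, and 0 to 3 members with a library left out (0 to 6653 genes). For the layers under IL-1β 7 members were called, against 4 in the fit on all 12 libraries (3716 genes against 6548) and 6 to 7 with a library left out. For the layers with IL-1β + LOXL2 the 3 members became 2 to 4 with a library left out, and the 2265 genes became 1140 to 4678, 4199 in the fit on all 12 libraries, 3883 with the replicate block and 4531 with the block and the gene-span trend removed. For the interaction no member was called under any alternative, and 1 gene was called without SLC IL-1β + LOXL2 replicate 1. The replicate block changed no other member's call than that of ADAMTS2 between layers with IL-1β + LOXL2.

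Signs changed with the gene-span trend removed for ADAMTS2 in SLC (0.14, and 0.13 with the block) and in MLC (0.21 both times), for ADAMTS6 in MLC (0.12 both times), for ADAMTS7 in MLC (0.12, and 0.13 with the block) and for ADAMTS4 in the interaction (0.046, and 0.045 with the block). With a library left out they changed for ADAMTS4 in SLC (-0.086 to 0.016), in MLC (-0.17 to 0.098) and in the interaction (-0.15 to 0.12), for ADAMTS7 in SLC (-0.029 to 0.38) and in MLC (-0.16 to 0.10), and, between layers with IL-1β + LOXL2, for ADAMTS5 (-0.12 to 0.37) and ADAMTS6 (-0.038 to 0.29). None of these members was called in that comparison in the main fit, though DESeq2's Wald test and the fit on all 12 libraries called ADAMTS2 lower in SLC. The fits with a library left out also hold fewer libraries, and the cause of the sign changes was not tested. The alternatives for levels per kilobase were not run, since exon and transcript lengths were not used here. Depth limits ADAMTS12 and ADAMTS15, which had at most 17 counts in a library.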
